A study of Mus musculus with 8 samples.

Results

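The Hox genes encode homeodomain transcription factors and lie in clusters A to D, in which each gene carries a paralogue number that follows its order along the chromosome. The members described here are all protein-coding rows of the expression table named Hoxa, Hoxb, Hoxc or Hoxd followed by a number. The rule found 33 genes among the 31228 rows, of which 18563 were protein-coding. Cluster A on chromosome 6 gave 11 genes, cluster B on chromosome 11 gave 8, cluster C on chromosome 15 gave 8 and cluster D on chromosome 2 gave 6 (mouse build GRCm38). Hox genes outside these rows were not analysed here. The rule used names only and no measured value.

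RNA was sequenced from 8 samples of C57BL/6 mice, whose age and sex are not given in the sources used here. The extrahepatic bile duct and the pancreatic duct were each dissected, minced and digested with collagenase IV, and 1 sample of each went into Trizol without culture. These samples are called epithelium, as labelled. The other 6 samples were organoids, 3 from the bile duct and 3 from the pancreatic duct, grown in Matrigel and taken after 3 to 4 passages. All organoids had B27 without vitamin A, N-acetylcysteine, EGF, R-spondin-1, Noggin, FGF10 and nicotinamide in the medium, and Wnt3A medium and Y27632 until luminal organoids had formed. Nothing states whether the organoids came from separate animals, so p-values measure only the spread between these cultures. Culture and organ source could be compared, but passage, medium and time away from the tissue cannot be told apart.

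In the embryo, low paralogue numbers act toward the head and high numbers toward the tail, and each level of the body axis has its own combination of active Hox genes. In adult organs the combination is partly kept, most of all in connective tissue cells such as fibroblasts, where it is known as a record of position. Polycomb proteins keep silent Hox genes packed in repressive chromatin, trithorax proteins keep active ones open, and retinoic acid switches on genes at the low-numbered end.

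Promoters from RefSeq (GRCm38.p6) are shown for the highest member of cluster A (Hoxa5), of cluster B (Hoxb4) and of cluster D (Hoxd8) in the pancreatic duct epithelium, since the results turn on these genes. The table of promoters matched 18 of the 33 members, with 20 promoters. Each sequence holds the 250 bases before the start of transcription, 5′ to 3′ on the gene's own strand, and capitals mark each CpG, the dinucleotide on which DNA methylation and many Polycomb targets depend. Hoxa5 was read from chr6:52204588-52204837 on the minus strand, with 28 CpGs. Hoxb4 was read from chr11:96318017-96318266 on the plus strand, with 14 CpGs. Hoxd8 was read from chr2:74704365-74704614 on the plus strand, with 6 CpGs.
Hoxa5: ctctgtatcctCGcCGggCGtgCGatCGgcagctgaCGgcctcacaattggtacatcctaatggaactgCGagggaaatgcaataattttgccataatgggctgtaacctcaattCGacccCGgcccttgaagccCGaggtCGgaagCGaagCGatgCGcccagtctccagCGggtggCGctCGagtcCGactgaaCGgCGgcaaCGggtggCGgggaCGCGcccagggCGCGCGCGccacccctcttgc
Hoxb4: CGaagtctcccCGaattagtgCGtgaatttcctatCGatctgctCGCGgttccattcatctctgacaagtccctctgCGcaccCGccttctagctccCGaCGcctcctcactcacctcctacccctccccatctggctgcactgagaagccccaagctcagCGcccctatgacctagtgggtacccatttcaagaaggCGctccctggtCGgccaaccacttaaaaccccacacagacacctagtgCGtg
Hoxd8: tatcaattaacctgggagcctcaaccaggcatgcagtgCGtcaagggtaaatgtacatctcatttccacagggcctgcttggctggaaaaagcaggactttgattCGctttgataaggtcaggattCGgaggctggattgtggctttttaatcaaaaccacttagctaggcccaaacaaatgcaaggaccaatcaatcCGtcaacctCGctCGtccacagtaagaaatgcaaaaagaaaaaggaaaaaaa

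The matched Hox promoters were rich in CpG. Over the 250 bases before the start, their median was 12.5 CpGs, against 6 over all 32851 promoters of the table, and 60% of them held at least 12 CpGs, against 33.5% of all promoters. Hoxa13 had the most, with 35, and 1 of the promoters of Hoxd11 the fewest, with 2. The joint HOX and PBX motif TGATNNAT, searched on both strands, was found in 15% of the Hox promoters (Hoxa2, Hoxb8 and 1 promoter of Hoxd11) and in 7.68% of all promoters. Such a match is a run of letters, not a shown binding site.

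Expression values are FPKM, which divide the reads of a gene by the length of its exons and the size of the library. Read numbers recovered from them implied 12876473 to 20828204 reads per library, and all 33 members came out as whole reads in all 8 libraries. Intervals given below (95%) cover counting error only. Genes at 1 FPKM or more numbered 13804 to 14239 in the epithelia and 11771 to 12117 in the organoids. The duct keratin Krt19 was at 699 to 2097 FPKM in the organoids, 432 FPKM in the bile duct epithelium and 83.8 FPKM in the pancreatic duct epithelium. The samples labelled epithelium also held other cells: 6 markers of acinar cells summed to 16487 to 34492 FPKM in the epithelia, and 12 markers of fibroblasts and mesothelium to 1627 to 1964 FPKM.

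Both epithelia held reads of nearly all 33 Hox members, and the organoids held almost none. For 6 members, each epithelium had fewer than 10 reads. Reads were found for 30 of 33 members in the bile duct epithelium and 32 of 33 in the pancreatic duct epithelium, against 1, 7 and 9 members in the cultures from bile duct and 6, 5 and 8 in those from pancreatic duct. At 1 FPKM or more there were 15 members in the bile duct epithelium, 17 in the pancreatic duct epithelium, 1 in pancreatic duct organoid 1 and 0 in each of the other 5 organoids. The FPKM of all members summed to 51.1 in the bile duct epithelium and 65.2 in the pancreatic duct epithelium. The same sum over the cultures was 0.0642, 0.293 and 0.273 for bile duct and 5.06, 0.730 and 0.379 for pancreatic duct. No organoid reached either epithelium. In bulk RNA, fewer cells of a type and less RNA per cell cannot be told apart.

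**Figure D1:**
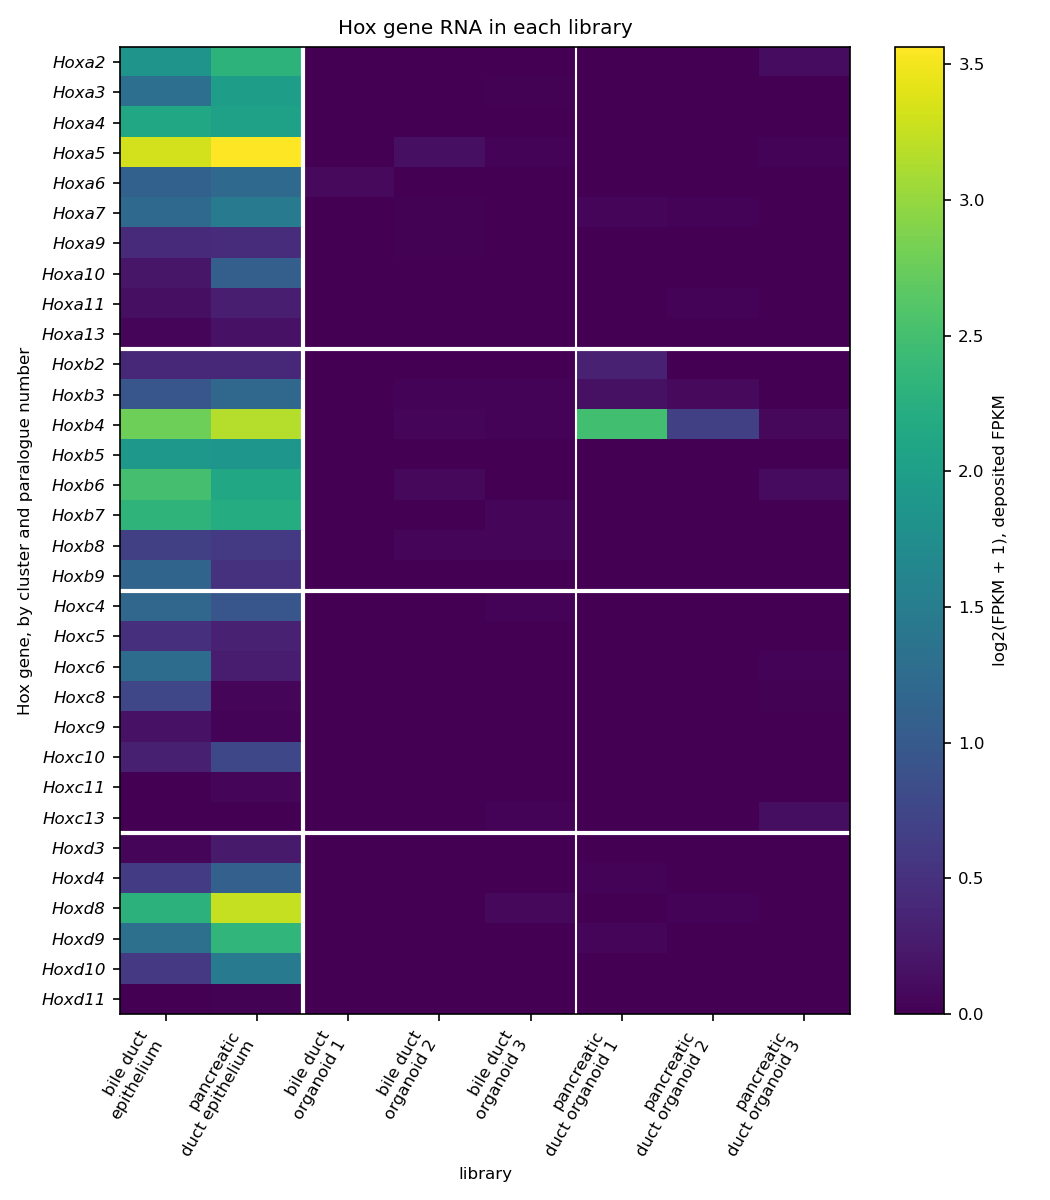
Level of Hox genes of paralogue groups 2 to 13 in each library as log2(FPKM + 1) of the deposited values, with genes in rows by cluster and paralogue number and the 8 libraries in columns. The 2 epithelia on the left hold the highest values, with Hoxa5 at 8.98 and 10.8 FPKM, and the only organoid value above 1 FPKM is Hoxb4 in pancreatic duct organoid 1.

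Within the epithelia, RNA was highest for the middle paralogue groups. Groups 4 and 5 summed to 11.0 and 12.1 FPKM in the bile duct epithelium and to 13.2 and 13.7 FPKM in the pancreatic duct epithelium. Groups 11 and 13 together stayed under 1 FPKM, with group 11 at 0.102 and 0.274 FPKM and group 13 at 0.0314 and 0.131 FPKM in the bile and pancreatic duct epithelium. Across the 33 genes, log2(FPKM + 1) in one epithelium followed that in the other with Pearson r = 0.896 and Spearman rho = 0.867, a description over genes that share exon lengths and neighbours and are not independent replicates.

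Cluster A carried the highest member in both epithelia. Hoxa5, which patterns the foregut mesenchyme, the lung and the neck vertebrae (ENSMUSG00000038253, chr6:52201754-52204587), was at 8.98 FPKM in the bile duct epithelium and 10.8 in the pancreatic duct epithelium, with 217 and 314 reads. Its organoid values were 0, 0.107 and 0.0290 FPKM in the bile duct cultures and 0, 0 and 0.0256 in the pancreatic duct cultures, so no organoid came near either epithelium. Hoxa4, at 3.36 and 3.13 FPKM in the bile and pancreatic duct epithelium, had 0 reads in all 6 organoids. Hoxa2, which sets the identity of the second pharyngeal arch, was at 2.58 and 3.94 FPKM and had reads in only 1 organoid, pancreatic duct organoid 3, at 0.0811 FPKM. Hoxa3, needed for thymus and parathyroid formation, was at 1.47 and 2.99 FPKM, with 2 reads in bile duct organoid 3, 1 in pancreatic duct organoid 3 and 0 elsewhere. Hoxa3 shares 25.4% of its exon bases with genes on the opposite strand, and nothing states whether strand was used in counting. Hoxa6 was at 1.16 and 1.33 FPKM, with 1 read in bile duct organoid 1 as its only organoid read. Hoxa7 was at 1.32 and 1.78 FPKM and reached at most 0.0451 FPKM in an organoid. The members at 1 FPKM or more ran from Hoxa2 to Hoxa7 in the bile duct epithelium and reached up to Hoxa10, without Hoxa9, in the pancreatic duct epithelium.

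Cluster B summed to 20.3 FPKM in the bile duct epithelium and 20.2 in the pancreatic duct epithelium. Its highest member in both was Hoxb4, known for expanding blood stem cells (ENSMUSG00000038692, chr11:96318267-96321638), at 5.84 and 8.02 FPKM. Hoxb6 was at 4.71 and 3.39 FPKM in the bile and pancreatic duct epithelium, with 0.0510 FPKM in bile duct organoid 2, 0.0733 in pancreatic duct organoid 3 and 0 in the other organoids. Hoxb7 was at 3.97 and 3.60 FPKM, with a single organoid read, in bile duct organoid 3. Hoxb5 was at 2.73 and 2.65 FPKM and had 0 reads in all 6 organoids. The stretch of members at 1 FPKM or more ended at Hoxb9 in the bile duct epithelium and at Hoxb7 in the pancreatic duct epithelium, and Hoxb8 was under 1 FPKM in both.

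Clusters C and D set the epithelia apart most. Cluster C summed to 4.12 FPKM in the bile duct epithelium and 2.21 in the pancreatic duct epithelium, while cluster D summed to 6.50 and 15.7 FPKM. The sums of clusters A, B, C and D in the pancreatic duct epithelium were 1.34, 0.998, 0.538 and 2.41 times those in the bile duct epithelium. Hoxd8 (ENSMUSG00000027102, chr2:74704615-74707933), the highest member of its cluster, was at 3.91 and 8.51 FPKM, with 0.0594 FPKM in bile duct organoid 3, 0.0207 in pancreatic duct organoid 2 and 0 in the other organoids. Hoxc4 was at 1.27 and 0.932 FPKM, with a single organoid read, in bile duct organoid 3. Hoxc13, known for its part in hair and nail growth, was the only member without a read in either epithelium. It had 1 read in bile duct organoid 3 and 5 reads (0.0975 FPKM) in pancreatic duct organoid 3.

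With 1 library for each epithelium, the difference between them has no replicate check, and ratios of deposited FPKM are given with their counting interval. The interval lay above 1 in the direction of the pancreatic duct for 12 members, against a background of 21.2% of 25299 genes. It lay in the direction of the bile duct for 4 members, against a background of 21.1%. The other 17 covered 1 or could not be computed. The 12 included Hoxa2, Hoxa3, Hoxa5, Hoxa10, Hoxb4, Hoxc10, Hoxd3, Hoxd4, Hoxd8, Hoxd9 and Hoxd10, among them 5 of the 6 members of cluster D. Of those 5, Hoxd3 and Hoxd4 share exon bases with each other on the same strand and are not separate observations. Hoxd3 rests on 2 reads in the bile duct and 13 in the pancreatic duct epithelium. The 4 in the direction of the bile duct were Hoxb6, Hoxb9, Hoxc6 and Hoxc8. Past 2-fold on the scaled log2(FPKM + 1) scale there were 2 of 20 members with at least 1 FPKM in an epithelium, against 13.3% of 15332 genes. With a pseudocount of 0.1 FPKM there were 6 of the 20, against 19.4% of genes. With 1 FPKM added, the 2 were Hoxc6, higher in the bile duct (background 9.01%), and Hoxd9, higher in the pancreatic duct (background 4.34%).

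On the scaled log2(FPKM + 1) scale, the 3 members widest apart in each direction between the epithelia were all of paralogue groups 6 to 10. Higher in the pancreatic duct were Hoxd9, Hoxd8 and Hoxa10. Hoxd9, which acts in limb and lumbar patterning, was at 1.49 FPKM in the bile duct and 4.06 in the pancreatic duct epithelium, a ratio of 2.72 (interval 1.91 to 3.96), and had 1 read in pancreatic duct organoid 1 and none in the others. Hoxd8 had a ratio of 2.18 (1.79 to 2.67). Hoxa10, known from the uterus and the lumbar spine, was at 0.166 and 1.11 FPKM, a ratio of 6.66 (3.03 to 17.3), with 0 reads in all 6 organoids. Higher in the bile duct were Hoxc6, Hoxc8 and Hoxb9, members that act at the level of the thorax. Hoxc6 was at 1.39 FPKM in the bile duct epithelium and 0.215 in the pancreatic duct epithelium, 6.45 times higher (3.00 to 15.9), with a single organoid read, in pancreatic duct organoid 3. Hoxc8 was at 0.686 and 0.0457 FPKM, 15.0 times higher (3.74 to 131), with 25 against 2 reads and a single organoid read, in pancreatic duct organoid 3. Hoxb9 was at 1.21 and 0.427 FPKM, 2.82 times higher (1.57 to 5.31), with 0 reads in all 6 organoids.

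**Figure D2:**
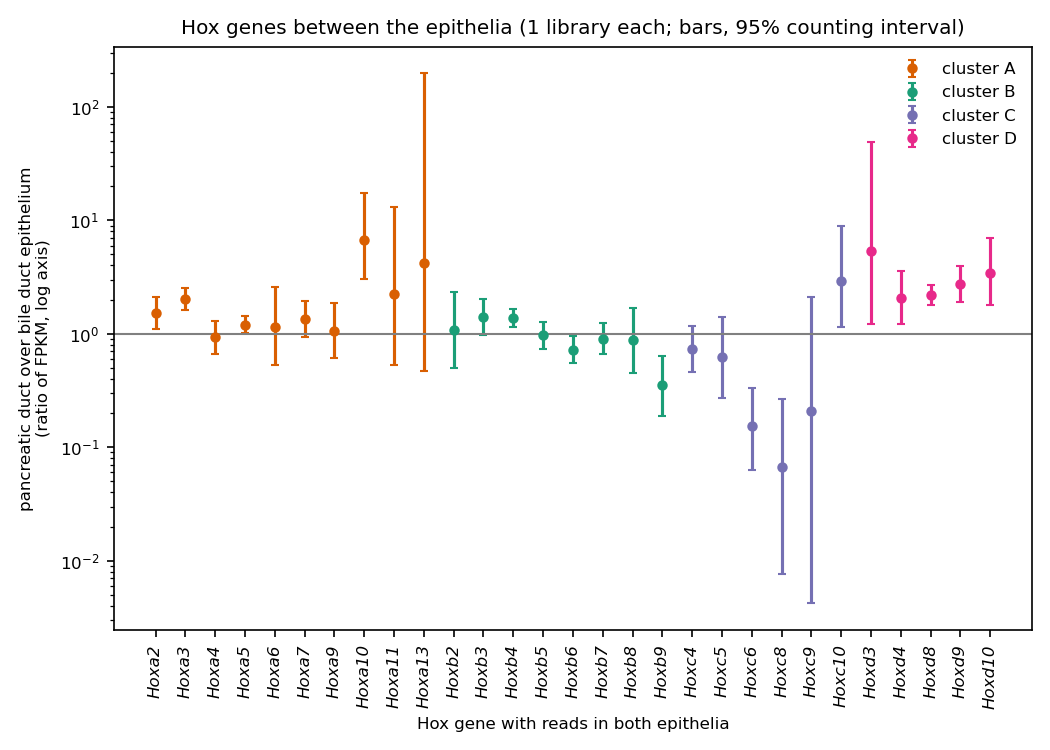
Ratio of the deposited FPKM in the pancreatic duct epithelium to that in the bile duct epithelium, on a log axis, for the 29 Hox genes of paralogue groups 2 to 13 with reads in both, by cluster and paralogue number. Points are ratios of 1 library each and bars are 95% counting intervals. All 5 plotted members of cluster D lie above 1, and Hoxc6 and Hoxc8 lie farthest below 1 among intervals that leave out 1.

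The cell makeup of the epithelia differed as well. All 10 duct markers and all 8 intestinal markers were higher in the bile duct epithelium, and the intestinal markers summed to 268 FPKM there and 11.9 FPKM in the pancreatic duct epithelium. Of the fibroblast and mesothelium markers, 9 of 12 were higher in the pancreatic duct epithelium, as were 4 of 6 of smooth muscle, 5 of 6 of endothelium and 6 of 6 of acinar cells, which summed to 34492 FPKM there and 16487 FPKM in the bile duct epithelium. Of the leukocyte markers, 4 of 6 were higher in the bile duct epithelium, and the 6 neural and Schwann cell markers split 3 and 3. Their part in the Hox differences was not tested.

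Between epithelium and organoid, Hox RNA was lower in the organoids throughout all 4 clusters. With every gene above 0 in any library tested (limma on log2(FPKM + 1), all 8 libraries, with organ as a term, Benjamini-Hochberg adjustment over 29890 genes), 29 of the 33 members were called lower and 0 higher. The background was 23.0% of genes called lower and 38.4% called in either direction. The 13 members without a read in any organoid entered through the epithelia alone and could only come out lower. The count is therefore a description. The median log2 difference over all 33 members was -0.91, against -0.01 over all genes tested, and the differences ran from -3.51 for Hoxa5 to 0.03 for Hoxc13. The 4 members not called were Hoxc8, Hoxc11, Hoxc13 and Hoxd11, of which the last 3 had at most 1 read in either epithelium. Without the bile duct epithelium, 30 of 33 members were called lower, against 25.6% of 29084 genes called lower and 37.7% in either direction. Without the pancreatic duct epithelium, 28 of the 31 then tested were called lower, against 25.2% of 29001 genes and 36.4% in either direction. In both of these fits the members not called were Hoxb2, Hoxb4 and Hoxc13.

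With the filter of 1 FPKM in at least 2 libraries, 14 members were tested and 14 called lower, against 27.4% of 14968 genes called lower and 59.5% called in either direction. These 14 passed the filter only through the epithelia, or for Hoxb4 through the epithelia and 1 organoid, and so had to differ. They are given as values. The log2 difference of Hoxa5 was -3.51 (SE 0.10), of Hoxd8 -2.85 (SE 0.20) and of Hoxb6 -2.39 (SE 0.11). Hoxb7 followed at -2.34, Hoxa4 at -2.17, Hoxa2 at -2.14, Hoxb5 at -1.96, Hoxd9 at -1.90 and Hoxa3 at -1.72. The smallest were Hoxa7 at -1.39, Hoxa6 at -1.21, Hoxc4 at -1.12 and Hoxb3 at -1.08. Hoxb4, at -2.52, had the largest error (SE 0.57, limma adjusted p = 0.00727). With every gene above 0 tested, its adjusted p was 0.147 without the bile duct epithelium and 0.0772 without the pancreatic duct epithelium. With the filter it lost its call without the bile duct epithelium and was still called without the pancreatic duct epithelium.

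Members called lower only without the filter had low levels in the epithelia and, apart from Hoxb2, at most 4 organoid reads. Hoxd10, of the lumbar and limb level, was at 0.513 FPKM in the bile duct and 1.75 FPKM in the pancreatic duct epithelium, and Hoxc10 at 0.244 and 0.712 FPKM, both with 0 reads in all 6 organoids (log2 differences -1.08 and -0.58). Hoxd4 was at 0.553 and 1.14 FPKM with 1 read in pancreatic duct organoid 1 (-0.91), and Hoxd3 at 0.0371 and 0.201 FPKM with none (-0.17). Hoxd3 shares 62.3% and Hoxd4 52.3% of its exon bases with other genes on the same strand, so their split is uncertain. Hoxa9 was at 0.348 and 0.371 FPKM with 2 reads in bile duct organoid 2 (-0.47), and Hoxc5 at 0.402 and 0.251 FPKM with none (-0.43). Hoxb2 was at 0.312 and 0.334 FPKM with 14 reads in pancreatic duct organoid 1 (-0.38). Hoxa11 was at 0.102 and 0.226 FPKM with 1 read in pancreatic duct organoid 2 (-0.23), and shares 35.0% of its exon bases with antisense genes. Hoxa13 at 0.0314 and 0.131 FPKM (-0.12) and Hoxc9 at 0.128 and 0.0266 FPKM (-0.11) had no organoid read. Hoxb8, Hoxb9, Hoxa10 and Hoxc6 had differences of -0.66, -0.88, -0.69 and -0.81.

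The log2 scale with 1 FPKM added understates these drops, since nearly all organoid values lay close to 0. Of the 198 organoid values of the members, 162 were 0 and 1 was above 1 FPKM. Setting reads against reads, Hoxa5 was 189-fold higher in the bile duct epithelium than in its 3 organoids (interval 79.9 to 589) and 1094-fold higher in the pancreatic duct epithelium than in its own (195 to 43327). Hoxd8 was 201-fold higher in the bile duct epithelium (67.3 to 985). For members with no read in an organoid, only the lower end of the interval can be given. Hoxb5 was at least 114-fold lower in the bile duct organoids and at least 106-fold lower in the pancreatic duct organoids. Hoxa4 was at least 79.5-fold lower in the bile duct organoids and at least 71.0-fold lower in the pancreatic duct organoids. Nearly all members that reached 1 FPKM did so through the epithelium and had to come out lower in the next counts, which are a description only. Past 2-fold on the scaled log2 scale, with all 3 organoids on one side of the epithelium, 15 of 16 members were lower in bile duct organoids (24.7% of 15333 genes lower, 39.3% in either direction) and 18 of 18 were lower in pancreatic duct organoids (23.4% of 15082 genes lower, 41.2% in either direction).

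Markers of most other cell types were lower in the organoids along with the Hox genes, while markers of duct epithelium were higher. The summed Hox FPKM was 243 times higher in the bile duct epithelium than the mean of its organoids, and 31.7 times higher in the pancreatic duct epithelium. The second ratio was 118 without pancreatic duct organoid 1, and 183 with all 3 cultures but without Hoxb4, both chosen after seeing the data. The 12 fibroblast and mesothelium markers summed to 1627 to 1964 FPKM in the epithelia and 349.5 to 856 FPKM in the organoids. The mesothelium marker Msln, also known from tumours of the pancreatic duct, made up nearly all of the organoid sum and rose, while the other 11 were called lower. Without Msln, left out after its values were seen, the sum was 1613 to 1937 FPKM in the epithelia and 1.36 to 29.1 FPKM in the organoids. Lum, a collagen-binding proteoglycan of fibroblasts, was at 0 in all 6 organoids. The 6 smooth muscle markers summed to 1934 to 3421 FPKM in the epithelia and 0.339 to 0.686 FPKM in the organoids. The 6 endothelial markers summed to 362 to 580 FPKM and 0.0799 to 0.295 FPKM, and the 6 leukocyte markers to 347 to 370 FPKM and 2.81 to 12.9 FPKM. The 6 neural and Schwann cell markers summed to 46.0 to 52.5 FPKM and 2.23 to 8.97 FPKM, and the 6 acinar markers to 16487 to 34492 FPKM and 1.65 to 8.17 FPKM. Most markers of these lists passed the filter through the epithelia alone, so their levels are a description. The 8 intestinal markers had no shared direction: they summed to 268 FPKM in the bile duct epithelium, 11.9 FPKM in the pancreatic duct epithelium and 62.3 to 128 FPKM in the organoids, with 2 of 5 tested called higher (Vil1 and Cdx2, against 32.1% of all genes of this fit) and 2 lower (Fabp2 and Alpi, which passed the filter through the epithelia alone and had to be lower). The 10 duct markers moved the other way, from 628 to 2554 FPKM in the epithelia to 5525 to 11292 FPKM in the organoids, with 8 of 10 called higher, against the same 32.1%. The part of these cells in the Hox difference was not tested.

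**Figure D3:**
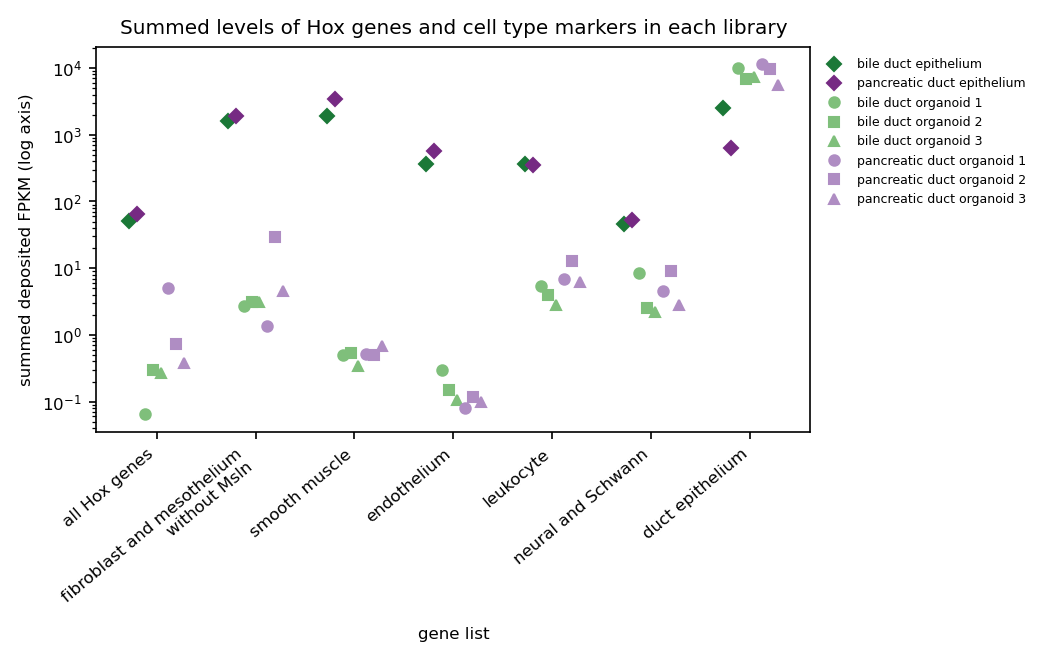
Summed deposited FPKM of the 33 Hox genes and of cell type marker lists in each of the 8 libraries, on a log axis, with diamonds for the epithelia and circles, squares and triangles for organoids 1, 2 and 3. The Hox sum and the stromal, muscle, vessel, leukocyte and nerve markers lie lower in all 6 organoids than in both epithelia, and the duct markers lie higher.

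Hoxb4 was the exception among the organoids. Its values were 0, 0.0390 and 0.0212 FPKM for the bile duct cultures and 4.58, 0.598 and 0.0561 FPKM for the pancreatic duct cultures, which are 0, 2 and 1 reads against 181, 27 and 3 reads. The groups did not overlap, but the pancreatic duct cultures differed among themselves by more than the groups did: the means were 0.0201 ± 0.0195 FPKM (SD, n = 3) and 1.74 ± 2.47 FPKM (SD, n = 3). For groups that do not overlap, the exact two-sided permutation test can only give p = 0.1, the smallest that 3 against 3 allows. It therefore adds nothing to the values. Hoxb4 was the only one of the 20 members with a read in an organoid whose groups did not overlap, against a background of 2.98% of 26795 genes with all pancreatic duct organoids higher. None of the 20 lay wholly higher in the bile duct organoids, against 2.34%. A count of 1 of 20 members is near these shares. The limma fit over all genes above 0 in an organoid gave a log2 difference of -1.06 for bile duct minus pancreatic duct organoids (SE 0.61, adjusted p = 0.986). Without pancreatic duct organoid 1 the difference was -0.36.

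In pancreatic duct organoid 1, Hoxb4 was at 4.58 FPKM, while the rest of the cluster was near 0. The pancreatic duct epithelium was at 8.02 FPKM and the bile duct epithelium at 5.84 FPKM. Its neighbours on the low-numbered side had small values there, with Hoxb3 at 0.122 FPKM (8 reads) and Hoxb2 at 0.261 FPKM (14 reads). Hoxb3 was at 0.0669 FPKM in pancreatic duct organoid 2, at 0.0235 FPKM in bile duct organoid 2, at 0.0256 FPKM in bile duct organoid 3 and at 0 in the remaining organoids. Hoxb2 had no read in any other organoid. Hoxb3 shares 52.9% and Hoxb2 27.3% of their exon bases with the antisense gene Hoxb3os, which was itself at 0.108 FPKM in this organoid, so their reads cannot be told apart from antisense reads. Hoxb4 shares none with another gene. Hoxb5 to Hoxb9, on the high-numbered side, had 0 reads in this organoid. Outside Hoxb2, Hoxb3 and Hoxb4, no member had more than 5 reads in any organoid.

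Beside the high Hoxb4 of pancreatic duct organoid 1, the sums of endothelial markers and of fibroblast markers without Msln were the lowest of the 6 organoids. The intestinal and duct marker sums were the highest. The fibroblast and mesothelium sum without Msln was 1.36 FPKM there, with Col1a1 at 0.109 and Dcn at 0.0111 FPKM. Pancreatic duct organoid 2 had the highest such sum, 29.1 FPKM, of which the filament gene Vim made up 28.5 FPKM. The summed smooth muscle, endothelial and neural markers of pancreatic duct organoid 1 were 0.518, 0.0799 and 4.60 FPKM, of which the first and the last lie within the range of the other organoids. Its leukocyte markers summed to 6.78 FPKM, the second highest of the 6 after the 12.9 FPKM of pancreatic duct organoid 2. The 6 leukocyte genes did not move together. The macrophage receptor Csf1r and the macrophage enzyme Lyz2, named after their values were seen, were highest in this organoid, at 3.47 and 0.839 FPKM, against at most 1.33 and 0.734 FPKM in the others. The macrophage marker Cd68 was second lowest there, at 2.32 FPKM against 2.16 to 10.9 FPKM. Cd79a and Cd3e, markers of B and T cells, were at 0.134 and 0.0159 FPKM, within the range of the others. The general leukocyte marker Ptprc was at most 0.00820 FPKM in any organoid. The intestinal markers of pancreatic duct organoid 1 summed to 128 FPKM, against 62.3 to 109.6 FPKM in the others. Its duct markers summed to 11292 FPKM, against 5525 to 10142 FPKM. The part of such cells in the Hoxb4 values was not tested.

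**Figure D4:**
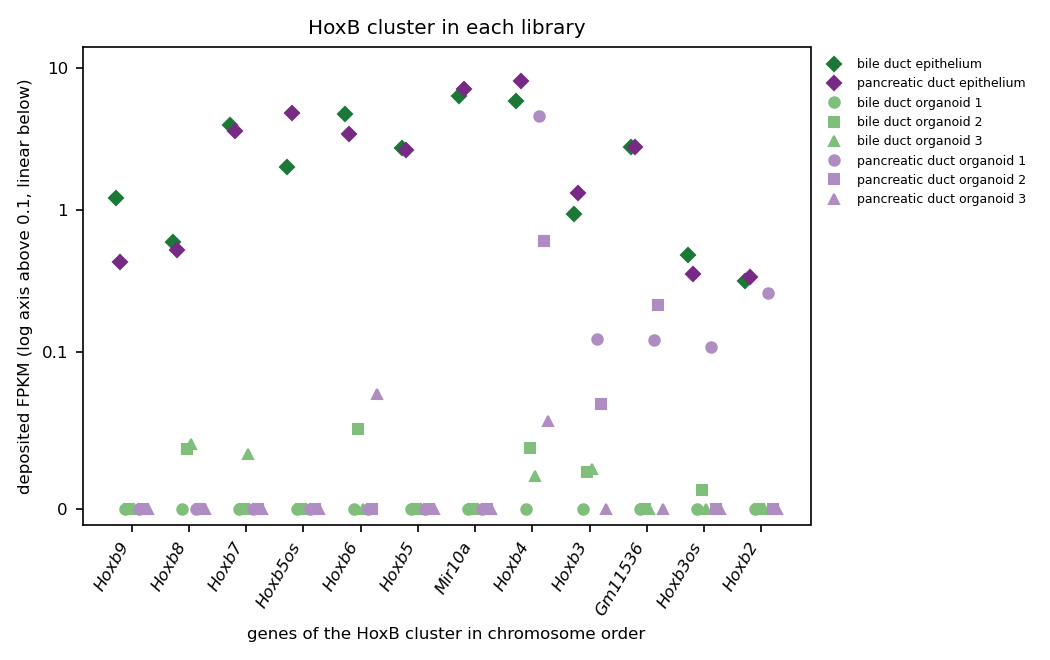
Deposited FPKM of the HoxB members and of noncoding genes between them in chromosome order, for the 8 libraries, on an axis that is logarithmic above 0.1 FPKM and linear below. Hoxb4 stands at 4.58 FPKM in pancreatic duct organoid 1 and 0.598 FPKM in pancreatic duct organoid 2, and Hoxb5 to Hoxb9 lie below 0.1 FPKM in all 6 organoids.

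No Hox gene was called between the organoid groups. With the filter of 1 FPKM in at least 3 organoids, no member was tested, and 0 of 12094 genes were called by limma (0.0% of genes, 311 at an unadjusted p under 0.05). With every gene above 0 tested, 0 of 26795 genes and 0 of the 20 members were called (690 genes at an unadjusted p under 0.05). After Hoxb4, the members widest toward the pancreatic duct were Hoxb2 at -0.11 and Hoxb3 at -0.07 on the log2 scale. Widest toward the bile duct were Hoxa5 at 0.05, Hoxb8 at 0.04 and Hoxa6 at 0.03. Hoxb8 was at 0, 0.0380 and 0.0413 FPKM in the bile duct organoids and 0 in the pancreatic duct organoids, and at 0.589 and 0.516 FPKM in the epithelia. These rest on 1 to 5 reads a culture, except for Hoxb2 and Hoxb3 in pancreatic duct organoid 1.

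The noncoding genes inside the clusters were likewise seen in the epithelia and nearly absent from the organoids. All 15 noncoding rows between the outermost members had a read in an epithelium, 6 were at 1 FPKM or more there, and 13 had none in any organoid. The row of the microRNA gene Mir10a, between Hoxb5 and Hoxb4, was at 6.35 FPKM (9 reads) in the bile duct and 7.06 FPKM (12 reads) in the pancreatic duct epithelium and at 0 in all 6 organoids. Libraries of polyadenylated RNA do not measure the mature microRNA. The antisense gene Gm11536, within Hoxb3, had 1 read in pancreatic duct organoid 1 and 2 reads in pancreatic duct organoid 2. Gm15050, in cluster A, had 1 read in pancreatic duct organoid 3.

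The lists that follow are read beside all 14968 genes of the same fit, of which 32.1% were called higher in the organoids and 27.4% lower. Of 10 tested genes that flank the clusters, 5 rose in the organoids (Cbx5, Atp5g3, Smug1, Mtx2 and Lnpk) and 1, Skap2, fell, and the median log2 difference over the 10 was 0.39, against 0.10 over all genes tested. Lnpk, beside cluster D, was at 1.65 and 1.51 FPKM in the bile and pancreatic duct epithelium and 2.11 to 3.70 FPKM in the organoids. Skap2, beside cluster A, was at 6.26 and 7.60 FPKM in the epithelia and 3.46 to 5.21 FPKM in the organoids, a log2 difference of -0.73 (SE 0.14, limma adjusted p = 0.0036). None of the 10 lies beside cluster B. Another 3 flanking genes, which lie beside it, did not pass the filter. Skap1 was at 0.333 and 0.156 FPKM in the epithelia and at most 0.0134 FPKM in the organoids, and Ttll6 was at 2.48 and 0.788 FPKM in the epithelia and at most 0.0737 FPKM in the organoids.

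Among the TALE homeodomain proteins that bind DNA together with Hox proteins, 2 of 9 rose in the organoids and 3 fell (limma, organoid against epithelium, adjusted p under 0.05), with a median log2 difference of 0.08 over the 9. These 5 of 9 are near the 59.5% of all genes called in either direction. Pknox2 fell by 1.46 on the log2 scale, from 1.49 and 1.77 FPKM to at most 0.0109 FPKM. Meis1 fell by 1.41, from 4.42 and 3.35 FPKM in the epithelia to 0.394 to 1.75 FPKM in the organoids. Meis3 fell by 0.99 and Pbx4 rose by 0.79. Pknox2 passed the filter through the epithelia alone and Pbx4 through organoids alone, so the direction of these 2 was set by the filter. Pbx2, among the most abundant, was not called, at 10.6 and 11.6 FPKM in the epithelia and 11.4 to 15.9 FPKM in the organoids.

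Among 24 Polycomb and trithorax genes, 12 rose in the organoids and 3 fell, with a median log2 difference of 0.34 against 0.10 over all genes tested. The 15 called of 24 are also near the 59.5% of all genes. Cbx2, a reader of the Polycomb mark, rose by 1.79 (SE 0.12), from 1.41 and 1.92 FPKM in the epithelia to 8.41 to 9.62 FPKM in the organoids. Ezh2, the enzyme that writes that mark in dividing cells, rose by 1.77 (SE 0.15), from 2.60 and 2.37 FPKM to 9.02 to 14.2 FPKM. Suz12, its partner, rose by 1.16, and Wdr5, of the trithorax complexes, by 1.18. The 3 that fell were Ezh1, the form of the enzyme found in resting cells, by 0.57, Bmi1 by 0.38 and Phc1 by 0.37. Repressing and activating genes were both among those that rose.

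Of 14 tested genes of retinoic acid synthesis, binding, reception and breakdown, 8 fell in the organoids and 1 rose, with a median log2 difference of -1.15 against 0.10 over all genes tested. Of all genes, 27.4% were called lower and 59.5% in either direction. Aldh1a1, an enzyme that makes retinoic acid, fell by 4.39 (SE 0.46), from 81.0 and 73.7 FPKM in the epithelia to 0.711 to 6.01 FPKM in the organoids. Dhrs3, which turns retinal back to retinol, fell by 4.04, Cyp26b1, which breaks retinoic acid down, by 3.98, and Aldh1a2, the main embryonic synthesis enzyme, by 3.26. The receptor gene Rarb, itself switched on by retinoic acid, was at 2.74 and 4.37 FPKM in the epithelia and at most 0.148 FPKM in the organoids. Rxrb rose by 0.88. Not all synthesis genes were lower. Rdh10 was at 6.14 and 4.54 FPKM in the epithelia and 13.3 to 181 FPKM in the organoids. It was not called (log2 difference 2.90, SE 1.12, limma adjusted p = 0.059). Aldh1a3, also not called, was at 6.85 and 1.44 FPKM in the epithelia and 0.506 to 19.0 FPKM in the organoids. Of the 8, Rarb, Rxrg, Cyp26b1 and Stra6 passed the filter only through the epithelia, and Aldh1a2 and Dhrs3 through the epithelia and 1 organoid. These 6 had to differ, so their falls, the count and the median of this list are a description. The culture medium of all organoids had B27 without vitamin A, the precursor of retinoic acid, and its part in these values cannot be told apart from that of culture itself. Between the organoid groups, 0 genes of these lists were called by limma.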

How the data were processed

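The authors deposited 1 table of FPKM per gene and library, a unit read from the values because no header names it. The submitters' processing notes name HISAT2 2.1.0, Bowtie2 2.2.3, TopHat2 and HTSeq 0.6.0, without their roles. FPKM times GENCODE M21 exon length was a whole multiple of a library-specific step (tolerance 0.05 of a read) for 28304 genes (90.6%) in all 8 libraries, which gave read numbers. FPKM were scaled by an unweighted trimmed mean of log ratios (30% and 5% trimmed per side), filtered at 1 FPKM (3 organoids, or 2 of all libraries) and tested as log2(FPKM + 1) with limma 3.58.1 (trend) in R 4.3.3, with Benjamini-Hochberg adjustment at 0.05. The unfiltered fits test every gene above 0. Read ratios have exact conditional 95% intervals. The fits were tested on simulated data. Python 3.11.15, pandas 2.3.3, numpy 2.4.6, scipy 1.17.1 and matplotlib 3.10.9 were used. Strand use in counting is not given in the sources used here. The members and the gene lists were chosen with earlier results of these data known. Values are given for the 6 highest members of each epithelium, the 3 widest apart per direction between groups, and the members called in a test, as far as they are reported here. From each gene list, up to 4 called genes or the 2 most abundant are named, with others named after their values were seen. Alternatives covered scaling, pseudocount, filter, test, block, thresholds and each library left out. Some results are not reported here.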

Additional observations from a re-analysis of the deposited data

How the results depend on the processing

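The 14 members called between organoid and epithelium kept their direction under each alternative that tested them. The number of members called moved with the number tested, from 14 to 26 with a filter of 0.1 FPKM and 29 with none. Leaving out libraries gave 0 to 30 members and 4301 to 10972 genes (4301 to 9244 with the filter). With the filter, 4757 genes and 0 members were called without the bile duct epithelium, and 4301 genes and 1 member without the pancreatic duct epithelium, where only 1 member passed the filter. Without the filter these were 30 and 28 members (chosen after seeing the data, as were all fits that combine no filter with another change). In the fits with 1 epithelium, that sample is assumed to vary like the organoids, so a single read there was enough for a call. Between the organoid groups, 0 genes became 1 gene with voom on recovered reads, with the filter or without it. Leaving out 1 organoid gave 0 to 30 genes: 11 with the filter and 10 without it when pancreatic duct organoid 3 was left out, and 30 without the filter when bile duct organoid 1 was left out, with 0 Hox members each time. The log2 difference of Hoxb4 between these groups ran from -0.36 to -1.57 when 1 organoid was left out and was -2.77 with a pseudocount of 0.1 FPKM and -4.30 with voom, with adjusted p from 0.726 to 1.000. From epithelium to organoid, Hoxb4 kept its direction at -2.20 without the bile duct epithelium and -2.85 without the pancreatic duct epithelium but lost its call in the unfiltered fits. The cause was not tested. Past 2-fold between the epithelia, 6 members passed with a pseudocount of 0.1 FPKM (19.4% of genes) and 1 without scaling, in place of 2. At a threshold of 2 FPKM there were 8 members in the bile duct and 10 in the pancreatic duct epithelium, and at 0.5 FPKM pancreatic duct organoid 2 had 1. Scaling moved the median of all genes: from epithelium to organoid it was 0.02 and 0.06 for bile and pancreatic duct with scaling, and 0.16 and 0.19 without. With the replicate number as a block, 0 genes were called (295 at an unadjusted p under 0.05). Same-numbered organoids deviated from their group means with correlations of -0.10, -0.44 and 0.48, so the numbers were not taken to pair them. Members with under 10 reads in both epithelia numbered 6, which limits the precision of their values.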

Other observations

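Of the ParaHox and Hox-linked genes Pdx1, Cdx1, Cdx2, Cdx4, Evx2 and Mnx1, only Pdx1 and Cdx2 passed the filter. Both were called higher in the organoids (limma over all 8 libraries, median log2 difference 1.87). Of all genes tested in this fit, 32.1% were called higher, and the median difference was 0.10. Pdx1, the master factor of pancreas and duodenum, was at 10.2 FPKM in the bile duct and 1.86 FPKM in the pancreatic duct epithelium and at 12.2 to 27.4 FPKM in the organoids (log2 difference 1.65, SE 0.45, adjusted p = 0.0157). Cdx2, which specifies intestine, was at 4.84 and 0.114 FPKM in the epithelia and at 4.45 to 20.7 FPKM in the organoids (log2 difference 2.08, SE 0.75, adjusted p = 0.0469). The difference was wider for the pancreatic duct, whose epithelium was the lower one. Bile duct organoids 1, 2 and 3 were at 12.2, 27.4 and 20.8 FPKM for Pdx1. For Cdx2 they were at 6.93, 7.06 and 17.3 FPKM. Cdx1 was at 1.69 FPKM in the bile duct epithelium and at most 0.0371 FPKM in the other libraries.

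Of 13 tested factors of the foregut and its endoderm, 7 rose in the organoids and 2 fell, with a median log2 difference of 0.91 against 0.10 over all genes tested, of which 32.1% were called higher and 59.5% in either direction. Hnf4a rose by 2.75 (SE 0.53), with 61.7 to 101 FPKM in the organoids against 28.1 and 3.27 FPKM in the bile and pancreatic duct epithelium. Foxa2 rose by 2.52 and Sox9, the duct progenitor factor, by 2.27. Sox17, a factor of bile duct and endothelium, fell by 1.82 and Prox1, of liver, pancreas and lymph vessels, by 1.94. Sox17 was at 4.98 and 11.1 FPKM in the bile and pancreatic duct epithelium and 0.503 to 6.00 FPKM in the organoids. Its highest organoid value, in bile duct organoid 1, lay above the bile duct epithelium. Between the organoid groups, 0 of these genes were called by limma.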
